A study of Rattus norvegicus with 14 samples.

Results

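The regions described here are 1518 tiles of 1000 bp in the rat genome that hold few CpG cytosines, lie away from CpG-dense sequence and carried little methylation in normal oesophagus. They are 1518 of 64549 tiles tested on chromosomes 1 to 20, and 1518 of 25268 CpG-sparse tiles of any methylation level. Tiles were counted from position 1 of each chromosome. A tile was CpG-sparse when 1 to 19 distinct cytosine positions in it were listed in any of the 13 files, and no tile with 60 or more listed positions lay within 5 tiles. It had to hold at least 3 cytosines that were each listed in 3 or more files of every group. Members were selected on their methylation in 2 control libraries: the reads of NSC replicates 1 and 2, pooled, had to be less than 30% methylated. Those libraries took no part in any comparison, and NSC replicates 3 and 4 served as the controls. Positions are those of the assembly mRatBN7.2. No gene annotation entered, so the distance that the rule asks for is a distance from CpG-dense tiles and not from genes.

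The DNA came from male rats of 8 to 9 weeks whose oesophagus had been repaired with an acellular graft of silk fibroin, and from controls without surgery. The week 1 group (4 libraries) was new tissue that had formed in the graft area by day 7. The day 1 group (5 libraries) was host oesophagus taken with a punch within 2 mm of the defect on the day after surgery. The NSC group (4 libraries, of which replicates 3 and 4 were the controls here) was oesophagus of full wall thickness from rats without surgery. Day 1 and week 1 libraries together are called operated libraries below. Tissue site and time differed together between week 1 and day 1 and cannot be told apart. A further week 1 sample, the fifth, was not used here. Nothing in the labels states that each library stands for its own animal, and the p-values therefore reflect variation among these libraries, which may be technical in part.

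In mammals, DNA methylation sits mainly on the cytosine of a CpG pair, and most CpG-poor DNA is heavily methylated while CpG islands are mostly free of it. CpG-poor stretches with little methylation away from islands are often regulatory elements such as enhancers, where bound transcription factors and low methylation go together, and which of them are low differs between cell types. Reduced representation bisulfite sequencing reads such sites only where the enzyme MspI, which cuts at CCGG, leaves short fragments, so a tile is sampled by the few cytosines near a cut.

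Between 1432898 (day 1 replicate 2) and 4181382 (NSC replicate 1) cytosines were listed per library. Summed reads ran between 9676493 and 49782600, with the same libraries at the ends. Pooled over all listed cytosines of chromosomes 1 to 20, which differed between libraries, methylation was 58.8% to 69.8% at week 1, 63.9% to 75.2% at day 1, with day 1 replicate 2 highest, and 56.8% to 60.1% in the 4 NSC libraries. Over those of the 1518 tiles that a library read, the median number of reads per tile was 29 to 60 in week 1 libraries, 15 in day 1 replicate 2, 38 to 67 in the other day 1 libraries, and 71 and 59 in NSC replicates 3 and 4. Day 1 replicate 2 had reads in only 455 of the tiles, and every other library had them in at least 1258. One read can count at several cytosines, so floors given here cover counting error only.

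The tiles were thin. They held a median of 14 listed positions, and a median of 4 cytosines entered the tests, which spanned a median of 95 bp (quartiles 48 and 195 bp). That span was 128 bp in CpG-sparse tiles at 70% and above. Exactly 3 cytosines entered for 696 tiles (45.8%), and 16 was the most. Both strands of at least 1 CpG were read in 199 tiles (13.1%), which gave 370 such pairs. The 2 strands of a pair differed by a median of 5.46 points at week 1, 4.55 points at day 1 and 4.95 points in NSC replicates 3 and 4. Of the 1518 tiles, 944 had reads in all libraries other than day 1 replicate 2, and 356 in all 13. They were scattered: 28 adjacent pairs were found, no run was longer than 2 tiles, and the median gap between neighbours on a chromosome was 700 kb.

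The low level that chose the tiles was largely present in the libraries that did not choose them. Pooled NSC replicates 1 and 2 averaged 13.3% over the tiles and NSC replicates 3 and 4 averaged 16.5%. In NSC replicates 3 and 4, 299 tiles (19.7%) were at 30% or more and 41 were at 50% or more. The 3 highest members, chr11:31798001-31799000, chr5:164637001-164638000 and chr2:82223001-82224000, were at 29.99%, 29.96% and 29.95% in the selecting pair, and at 33.6%, 26.96% and 42.97% in NSC replicates 3 and 4. The tiles just outside, chr13:90815001-90816000, chr6:128567001-128568000 and chr5:71199001-71200000, were all at 30% in the selecting pair and at 0%, 34.7% and 17.9% in NSC replicates 3 and 4.

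The tiles fell into a part that stayed nearly free of methylation and a part that did not. Of the 490 tiles under 5% in the selecting pair, the median was 0.162% in week 1 replicate 4 and 0% in every other operated library and in NSC replicates 3 and 4. Tiles at 50% or more were rare among them, at 2.08% to 2.84% in week 1 libraries, 2.17% to 3.11% in day 1 libraries, and 0% and 0.211% in NSC replicates 3 and 4. The 515 tiles at 5 to 20% had medians of 19.1% to 24.0% in week 1 libraries, 14.3% to 25.7% in day 1 libraries, and 14.4% and 14.5% in NSC replicates 3 and 4. Day 1 replicate 2 alone among the operated libraries did not exceed the controls there. In the 513 tiles at 20 to 30%, the medians were 40% to 46.2% in week 1 libraries, 39.4% to 50.8% in day 1 libraries, and 26.0% and 28.2% in NSC replicates 3 and 4. The separation was widest in these last tiles, where every operated library lay above both controls. At 50% or more were 35.3% to 46.6% of them in week 1 libraries, 42.2% to 50.5% in day 1 libraries, and 9.06% and 10.96% in NSC replicates 3 and 4. Values of a library cover only its tiles with reads, which in day 1 replicate 2 were 135, 154 and 166 in these 3 sets.

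**Figure D1:**
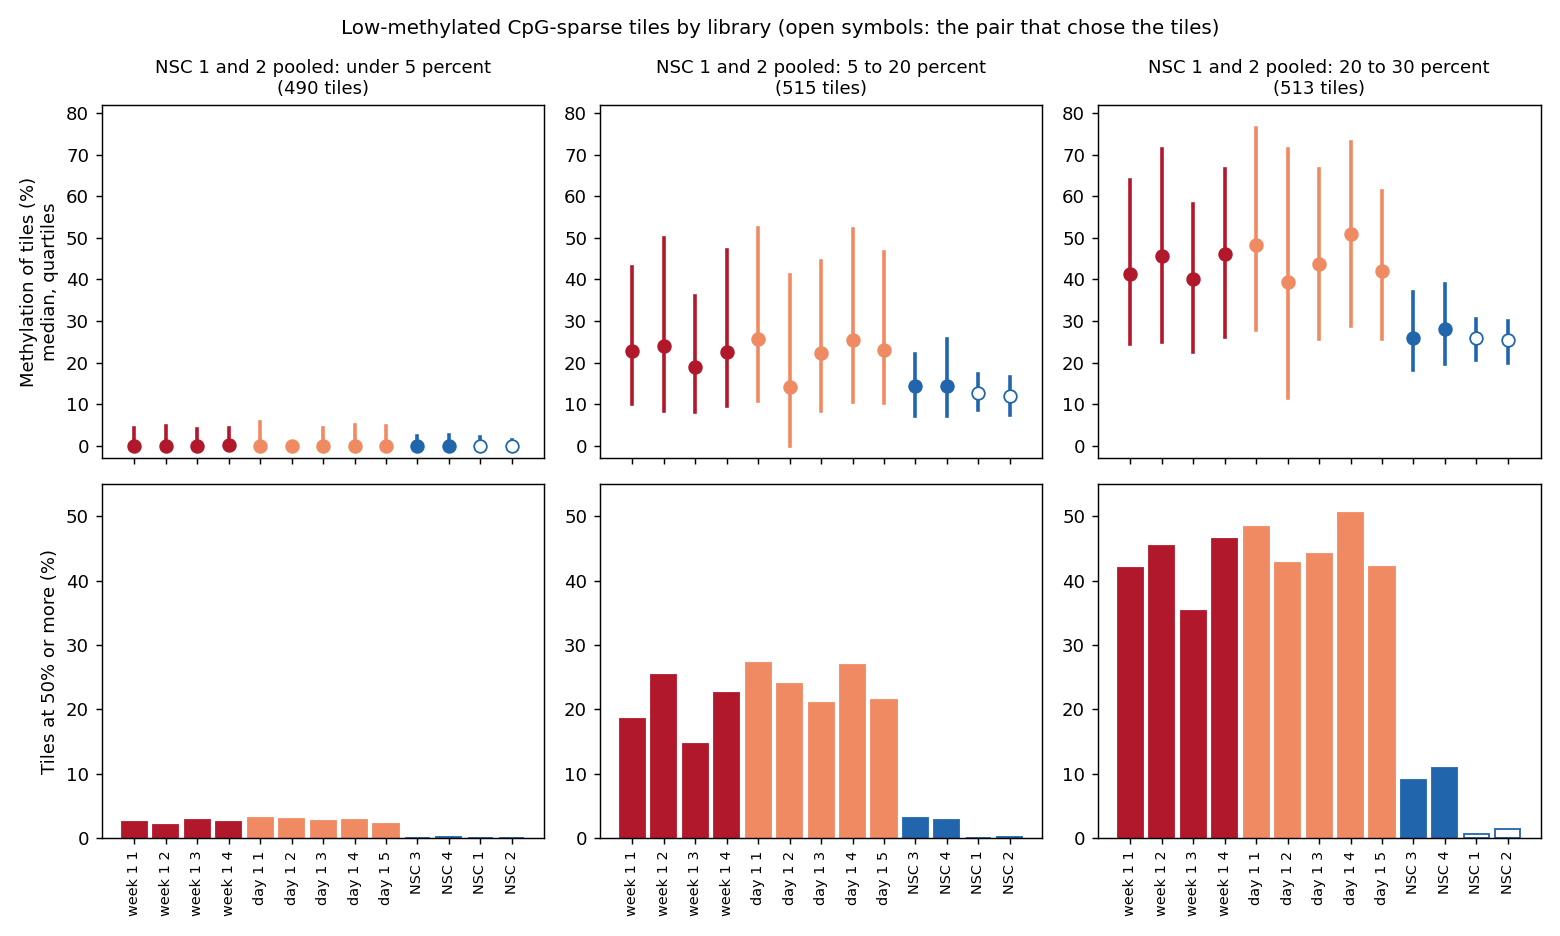
Methylation of the 1518 tiles in each library, in 3 columns by their pooled level in NSC replicates 1 and 2. The upper row shows the median (point) and quartiles (line) over tiles in percent, the lower row the share of tiles at 50% or more in percent; open symbols are the pair that chose the tiles, and in the right column the week 1 and day 1 medians of 39.4% to 50.8% lie above those of NSC replicates 3 and 4, 26.0% and 28.2%, on values that were not centred.

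In bulk tissue, a change of methylation within cells and a change in which cells were present cannot be told apart, and this touches every comparison below. A tile was called when its edgeR adjusted p (Benjamini-Hochberg over all 64549 tiles) was below 0.05 and the group mean percentages differed by at least 10 points. The 2 comparisons with NSC share the same 2 control libraries, so their results are not independent of each other.

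At day 1, tiles called higher than NSC outnumbered those called lower with edgeR and with limma, and by a narrower margin with limma after each library was centred. Of 1518 tiles, 114 were called higher and 8 lower by edgeR, together 8.04%, beside 2.38% of all tiles tested. This is 7.51% called higher, beside 1.64% of all tiles tested, and 0.527% called lower, beside 0.744%. Members and all tiles differ in their room for a gain, since the median NSC level was 13.4% over the members and 74.0% over all tiles, and the difference between the shares was not tested. Losses had little room among members, since a call needs 10 points and the 490 under 5% had an NSC median of 0.551%. The excess of higher over lower calls is therefore partly set by how the members were chosen. On percentages as read, limma called 115 of the members higher and 27 lower (9.35%, beside 5.72% of all tiles). With each library centred on its median over all tiles, limma called 69 higher and 56 lower (8.23%, beside 3.75% of all tiles). The median difference over the members was 4.55 points (day 1 21.7%, NSC 13.4%), beside 2.93 points over all tiles, and centring turned both round, to −4.82 and −6.52 points. The median log2 odds ratio was 1.11 over the members and 0.73 over all tiles. Differences above 0 were found at 1031 tiles (67.9%), beside 67.9% of all tiles, so the share of tiles above NSC was no larger among members than overall.

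The sizes given next are partly set by the call, which used the same day 1 and NSC values. For the 114 tiles called higher, the median was 72.9% at day 1 and 14.0% in NSC. Their median difference was 54.6 points, with a range of 17.8 to 82.4 points. In 96 of them the day 1 mean was 50% or more, and the 114 lay on 18 chromosomes. At 109 the day 1 and NSC libraries did not overlap, 7.18% of the members beside 1.61% of all tiles. At 111 every cytosine of the tile was higher at day 1, a count that was not made for all tiles. The 8 tiles called lower (0.527%, beside 0.736% of all tiles called lower without overlap) did not overlap either, with medians of 1.97% at day 1 and 28.5% in NSC. By level in the selecting pair, 10 of the 114 were under 5%, 51 at 5 to 20% and 53 at 20 to 30%. Called in either direction were 2.24%, 10.7% and 10.9% of the tiles at these levels, beside 2.38% of all tiles. Tiles under 5% were thus called no more often than all tiles. Without NSC replicate 3, edgeR called 0 members (335 at an unadjusted p below 0.05) and 2 of all tiles, and without NSC replicate 4 it called 0 members (351) and 5 of all tiles, with the lone control assumed to vary like the other groups. The median difference over the members was then 4.37 points without NSC replicate 3 and 4.89 points without NSC replicate 4, beside 4.55 points with both. Without day 1 replicate 1 the counts were 67 higher and 4 lower (4.68%), and without day 1 replicate 4 they were 63 and 4 (4.41%). Calls over all tiles were fewer as well, at 1.28% of them without day 1 replicate 1 (2.38% with all libraries) and 735 tiles without day 1 replicate 4 (1539 with all libraries).

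At week 1 as well, tiles called higher than NSC outnumbered those called lower, with edgeR and with limma before and after centring. Losses had the same little room as at day 1. Of 1518 tiles, 57 were called higher than NSC and 7 lower, together 4.22%, beside 1.00% of all tiles. By direction this is 3.75% beside 0.657% of all tiles called higher, and 0.461% beside 0.345% called lower. On percentages as read, limma called 73 of the members higher and 18 lower (5.99%, beside 3.58% of all tiles), and with centred libraries 55 higher and 27 lower (5.40%, beside 2.54%). The median difference was 3.57 points (week 1 20.1%, NSC 13.4%), beside 1.38 points over all tiles, and centring turned both round, to −2.85 and −5.07 points. The median log2 odds ratio was 0.90 over the members and 0.46 over all tiles. Differences were above 0 at 990 tiles (65.2%), beside 59.97% of all tiles.

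The 57 tiles called higher at week 1 had a median of 69.6% at week 1 and 12.97% in NSC. Their median difference was 55.1 points, and at 48 of them the week 1 mean was 50% or more. As at day 1, these sizes are partly set by the call. At all 57 the week 1 and NSC libraries did not overlap, 3.75% beside 0.654% of all tiles. At 56 every cytosine was higher, again a count not made for all tiles. The 7 tiles called lower (0.461%, beside 0.344% of all tiles called lower without overlap) had medians of 0% at week 1 and 26.4% in NSC, again without overlap. Called in either direction were 1.63% of tiles under 5% in the selecting pair, 5.83% at 5 to 20% and 5.07% at 20 to 30%. The share of all tiles was 1.00%. Leaving out either control again left 0 members called by edgeR. Without NSC replicate 3, 263 members had an unadjusted p below 0.05, 0 of all tiles were called and the median difference over the members was 3.71 points, and without NSC replicate 4 these were 294, 1 and 3.88 points. The counts higher and lower were 28 and 3 without week 1 replicate 1 (2.04%, beside 0.570% of all tiles), 31 and 3 without week 1 replicate 2 (2.24%, beside 0.446%), and 18 and 1 without week 1 replicate 4 (1.25%, beside 0.287%). Quasi-binomial regression called 0 at week 1, beside 0.0651% of all tiles, and 64 higher and 5 lower at day 1 (4.55%, beside 2.41%). By that regression 355 members had an unadjusted p below 0.05 at week 1. The share of all tiles at that level was not computed there or for the fits with 1 control. With both controls, edgeR had 26.7% of members and 14.1% of all tiles at that level at week 1.

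No tile was called between week 1 and day 1. By edgeR 62 of 1518 tiles (4.08%) had an unadjusted p below 0.05, beside 5.48% of all tiles, and at 42 (2.77%) the libraries of the 2 groups did not overlap, beside 3.97% of all tiles. Both limma and quasi-binomial regression called 0 of them. The median difference was −0.31 points over the members and −0.80 over all tiles, and with centred libraries it was 2.51 and 1.93 points. In the 114 tiles called higher at day 1 the medians were 62.6% at week 1, 72.9% at day 1 and 14.0% in NSC. In the 57 called higher at week 1 they were 69.6% at week 1, 71.4% at day 1 and 12.97% in NSC. Each list takes its largest difference from its own comparison, so the side-by-side values are a description.

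**Figure D2:**
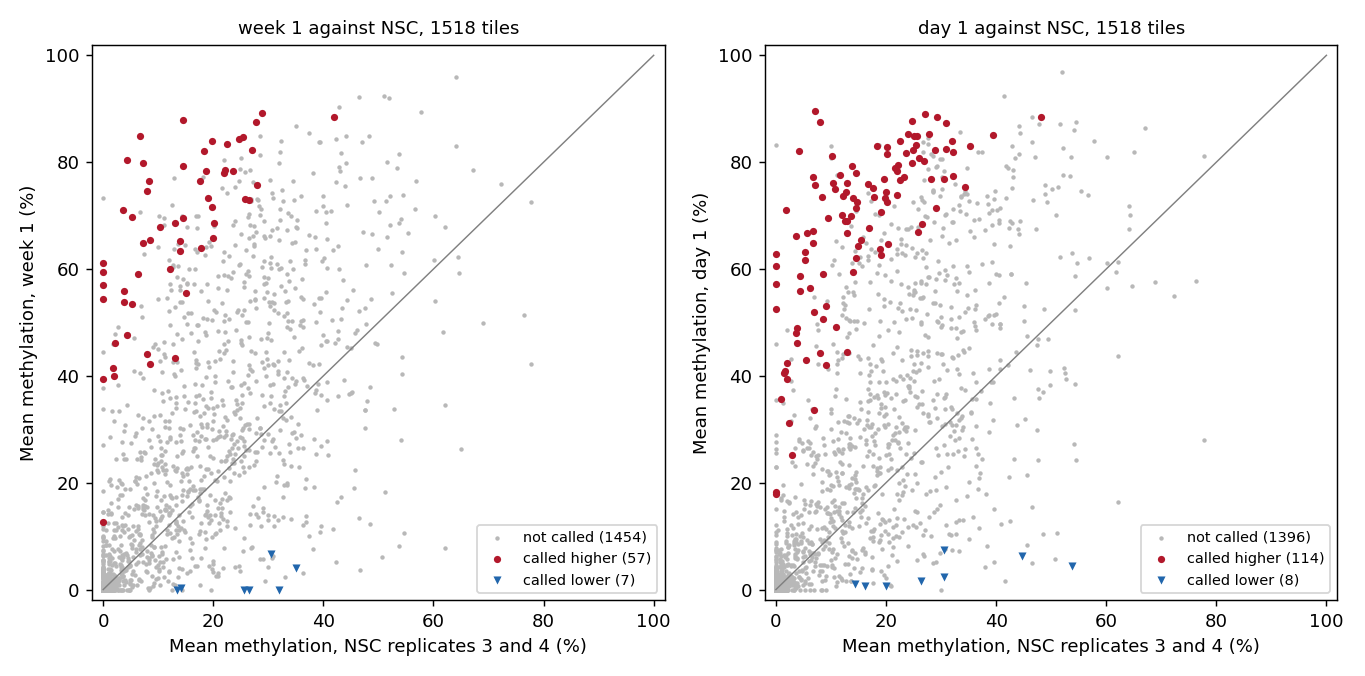
Mean methylation of each of the 1518 tiles at week 1 (left) and at day 1 (right) in percent, against the mean of NSC replicates 3 and 4 in percent, with the line of equal values. Red circles are tiles called higher (57 at week 1, 114 at day 1), blue triangles tiles called lower (7 and 8) and grey points the rest; most called tiles lie above 50% on the vertical axis and below 30% on the horizontal one, and with limma on centred libraries the counts were 55 and 27 at week 1 and 69 and 56 at day 1.

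Set beside other CpG-sparse tiles, the members had the largest of the 3 shares called higher in both comparisons with NSC. At week 1, 85 of the 6246 tiles at 30 to 70% were called higher (1.36%) and 23 lower, and 22 of the 17504 tiles at 70% and above were called higher (0.126%) and 56 lower. At day 1 the counts were 198 higher (3.17%) and 64 lower (1.02%) at 30 to 70%, and 65 higher (0.371%) and 113 lower (0.646%) at 70% and above. The median difference in points was not largest among the members: for tiles at 30 to 70% it was 10.03 points at week 1 and 13.5 points at day 1. Some other measures were larger at 30 to 70% as well. Libraries did not overlap NSC at 41.4% of those tiles at week 1 (members 35.6%) and 47.2% at day 1 (members 37.7%). Differences were above 0 at 72.8% at week 1 (members 65.2%) and 78.7% at day 1 (members 67.9%). The members had the larger median log2 odds ratio (0.90 beside 0.72 at week 1, 1.11 beside 1.01 at day 1). They also had the larger share with an unadjusted edgeR p below 0.05, narrowly at day 1. Differences between the classes were not tested, and each class starts from its own level.

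**Figure D3:**
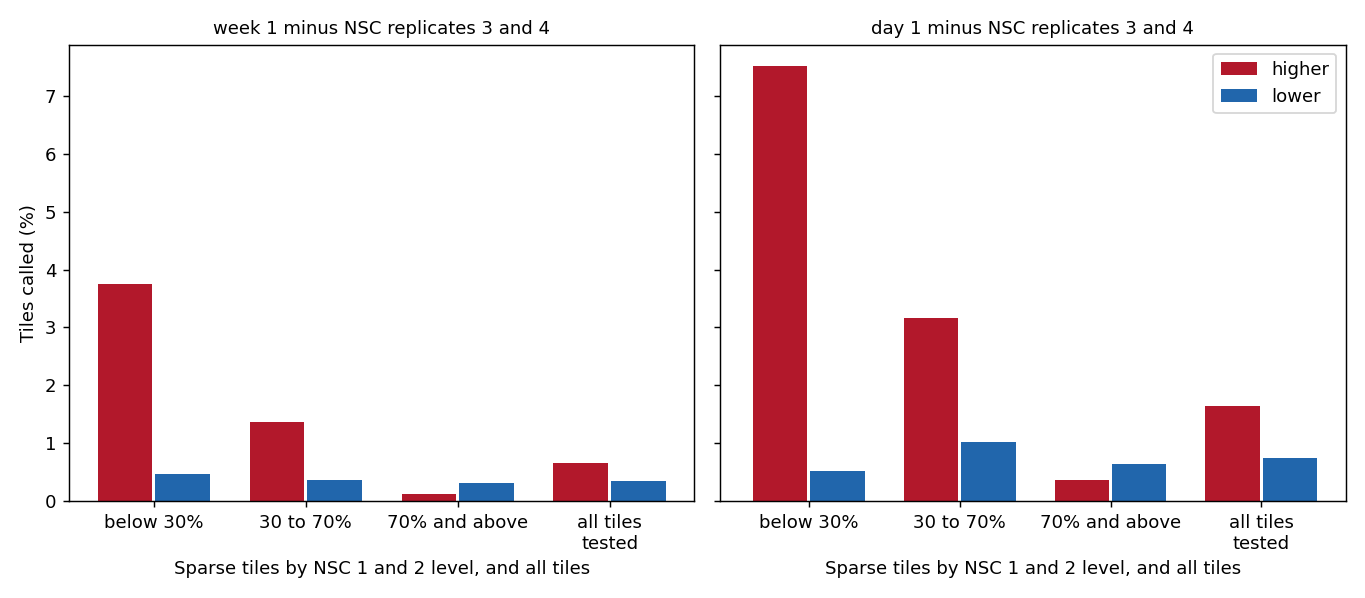
Share of tiles called higher (red) and lower (blue), in percent, at week 1 (left) and day 1 (right) against NSC replicates 3 and 4. Bars are CpG-sparse tiles by their pooled level in NSC replicates 1 and 2, and all 64549 tiles; for tiles below 30% the shares higher are 3.75% at week 1 and 7.51% at day 1, and with limma on centred libraries the counts higher and lower were 55 and 27 at week 1 and 69 and 56 at day 1.

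Individual tiles show what the calls rest on. A library given with no reads listed none of the tile's cytosines, and the files list a cytosine only from 5 reads. By a set rule, the 8 largest gains and 4 largest losses of each comparison were taken among called tiles whose groups did not overlap, with reads in at least 3 libraries of each operated group and in both controls. This gave 12 gains, A to L, and 7 losses, M to S. Tile B, chr7:27769001-27770000, was read at 3 cytosines between positions 27769235 and 27769277. Week 1 libraries had 84%, 85.7%, 50% and 78.9%, day 1 libraries 76.5%, 90%, 100% and 83.7% (no reads in replicate 3), and NSC replicates 3 and 4 had 10.9% and 5.00%. Every operated library was at 50% or above, far above both controls. The mean differed from NSC by 66.7 points at week 1 (edgeR adjusted p = 0.00773) and 79.6 points at day 1 (edgeR adjusted p = 0.00159). The libraries with reads there had 20 to 140 reads in the tile.

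The largest gain at day 1 was tile A, chr2:189601001-189602000. Its values were 100%, 71.4% and 68% (no reads in replicate 1) in week 1 libraries, 96.9%, 100%, 83.3% and 78.05% (no reads in replicate 2) in day 1 libraries and 8.96% and 5.41% in NSC replicates 3 and 4. No operated library came near the controls, and the selecting pair was at 0%. The differences from NSC were 72.6 points at week 1 (edgeR adjusted p = 0.0261) and 82.4 points at day 1 (edgeR adjusted p = 0.00542). Tile C, chr3:115523001-115524000, had 80%, 76.3%, 85% and 80.7% at week 1, 100%, 68.2%, 72% and 88.5% (no reads in replicate 2) at day 1, and 0% and 8.51% in NSC replicates 3 and 4. Its week 1 libraries were close together, its day 1 libraries were not, and both groups lay above the controls. The differences were 76.2 points at week 1 (edgeR adjusted p = 0.00908) and 77.9 points at day 1 (edgeR adjusted p = 0.00393).

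In tile F, chr12:1440001-1441000, week 1 libraries had 33.3%, 34.4% and 56.6% (no reads in replicate 1), day 1 libraries 84.4%, 68.6%, 94.4% and 36.7% (no reads in replicate 2), and NSC replicates 3 and 4 3.59% and 0%. The day 1 libraries spread widely, with replicate 5 near the week 1 values, and all lay above the controls. Tile G, chr5:161790001-161791000, was read in all 13 libraries, with 75%, 81.6%, 29.6% and 73.1% at week 1, 84.4%, 100%, 60.7%, 80.6% and 52.9% at day 1, and 0.840% and 13.5% in NSC replicates 3 and 4. Week 1 replicate 3 was the lowest operated library there and still lay above both controls. The 100% of day 1 replicate 2 rested on 6 reads. Over the 12 gains, the week 1 differences ran from 39.6 to 78.2 points and the day 1 differences from 56.3 to 82.4 points. Tiles D and H passed the test at day 1 and not at week 1, where the edgeR adjusted p was 0.0648 and 0.141, and tile I passed at week 1 and not at day 1, where it was 0.0725. Whether the 2 operated groups differ at these tiles was tested by edgeR, and none was called.

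Tile L, chr8:116574001-116575000, was read at 6 cytosines, all higher in both operated groups. Its values were 97.8%, 73.8%, 80.95% and 64.4% in week 1 libraries, 78.3%, 86.1% and 69.3% (no reads in replicates 2 and 3) in day 1 libraries and 25% and 4.17% in NSC replicates 3 and 4. The controls differed from each other, and every operated library lay above both. The largest gain at week 1 was tile E, chr16:57802001-57803000, with 100%, 88.9%, 86.7% and 64.1% at week 1, 78.4%, 75.8% and 77.8% (no reads in replicates 2 and 3) at day 1, and 13.3% and 0% in NSC replicates 3 and 4. Its selecting pair had 17.5% and 40.8%, above NSC replicates 3 and 4 and below the operated libraries. Tiles D, H, I, J and K are chr19:53319001-53320000, chr3:141131001-141132000, chr14:7805001-7806000, chr10:64186001-64187000 and chr1:234467001-234468000.

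**Figure D4:**
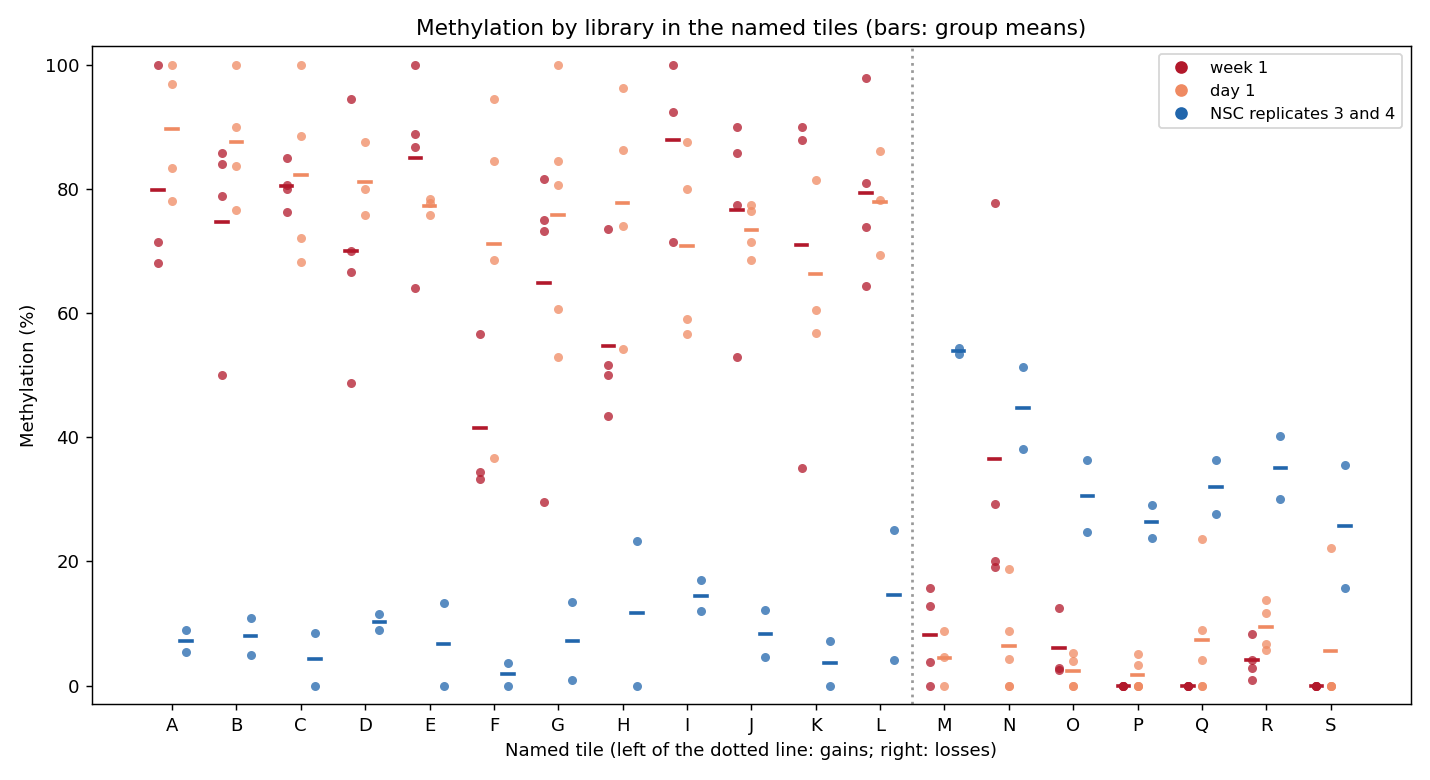
Methylation in percent of each library in the 12 named gains (A to L) and 7 named losses (M to S), with week 1 in dark red, day 1 in orange, NSC replicates 3 and 4 in blue, and bars at the group means. In gains the operated libraries lie above both controls, and in losses they lie below both, except week 1 replicate 3 in tile N, which lies above both, and day 1 replicate 3 in tile S, which lies between them.

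Some called tiles were read deeply, and there single cytosines can be followed. These tiles were added after the values had been seen, as the called members with the most reads. At chr3:155145001-155146000, with 10469 reads over 5 cytosines, week 1 libraries had 35.5%, 55.2%, 38.5% and 44.3%, day 1 libraries 46.3%, 38.5%, 47.7%, 52.4% and 37.2%, and NSC replicates 3 and 4 12.1% and 13.8%. Both operated groups lay above NSC with no overlap, while week 1 and day 1 overlapped, and the controls were close together. The week 1 mean was 43.4% ± 8.71 (SD, n = 4), the day 1 mean 44.4% ± 6.43 (SD, n = 5) and the NSC mean 12.96% ± 1.25 (SD, n = 2). This gave 30.4 points at week 1 (edgeR adjusted p = 0.0132) and 31.4 points at day 1 (edgeR adjusted p = 0.00521). All 5 cytosines, between positions 155145898 and 155145982, were at 29.7% to 45.2% at week 1, 40.1% to 51.9% at day 1 and 10.98% to 16.2% in NSC.

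In the tile chr8:110015001-110016000, week 1 libraries had 75.95%, 85.9%, 63.6% and 88.3%, day 1 libraries 85.3%, 87.5%, 74.2%, 88.4% and 73.6%, and NSC replicates 3 and 4 29.9% and 17.2%. Neither operated group overlapped NSC, though they overlapped each other, with 54.9 points at week 1 (edgeR adjusted p = 0.00773) and 58.2 points at day 1 (edgeR adjusted p = 0.00228). Its cytosines did not share a level in NSC. Position 110015717 was at 79.3% at week 1, 81.4% at day 1 and 7.14% in NSC, while position 110015939 was at 87.9% at week 1, 85.5% at day 1 and 84.4% in NSC. The last cytosine was methylated in every group and rested on 66 reads at week 1, 62 at day 1 and 32 in NSC.

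Such mixed tiles occur elsewhere. At chr10:73595001-73596000, week 1 libraries had 69.9%, 63.6%, 42.7% and 72.5%, day 1 libraries 80.1%, 84%, 71.3%, 83.2% and 65.7%, and NSC replicates 3 and 4 31.97% and 29.1%. It was called at day 1 (46.3 points, edgeR adjusted p = 0.00542) and not at week 1 (edgeR adjusted p = 0.0784). Position 73595539 was at 91.5% at week 1, 91.3% at day 1 and 96.3% in NSC, and position 73595928 at 56.4% at week 1, 63.8% at day 1 and 12.1% in NSC. The first was high in all groups, and the second differed between the operated groups and NSC. 

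At chr1:152649001-152650000 the contrast between neighbouring cytosines was sharper. Week 1 libraries had 22.2%, 25%, 21.6% and 30.6%, day 1 libraries 31.2%, 44.4%, 31.8% and 27.04% (no reads in replicate 2), and NSC replicates 3 and 4 5.22% and 8.45%. Week 1 and day 1 overlapped, neither overlapped NSC, and the tile was called at day 1 (26.8 points, edgeR adjusted p = 0.0193) and not at week 1 (18.02 points, edgeR adjusted p = 0.0976). Position 152649831 was at 0.352% at week 1, 0.169% at day 1 and 0% in NSC, while the next cytosine read, position 152649841, was at 58.7% at week 1, 72.3% at day 1 and 15.7% in NSC. It rested on 281 reads at week 1, 585 at day 1 and 197 in NSC, and the remaining 5 cytosines of the tile on 6 to 13 reads each in NSC. No cytosine other than 152649841 exceeded 9.09% in any group.

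Other deep gains were more even along the tile. The tile chr2:227271001-227272000 had 85.9%, 97.96%, 87.5% and 85.3% at week 1, 84.8%, 100%, 78.6%, 82.2% and 65.6% at day 1, and 32.99% and 24.7% in NSC replicates 3 and 4. The 100% of day 1 replicate 2 rested on 5 reads. The 3 cytosines of the tile were at 86.4% to 88.5% at week 1, 73.7% to 77.3% at day 1 and 25.9% to 47.5% in NSC. Week 1 lay within the day 1 range and both lay above NSC, with differences of 60.3 points at week 1 (edgeR adjusted p = 0.00534) and 53.4 points at day 1 (edgeR adjusted p = 0.0121). The tile chr13:96011001-96012000, with 8 cytosines, had 41.1%, 66.1%, 55.7% and 70.2% at week 1, 83.1%, 97.1%, 67.4%, 71.5% and 66.6% at day 1, and 20.97% and 25.5% in NSC replicates 3 and 4. All operated libraries lay above both controls, and each cytosine was higher in both operated groups. It was called at day 1 (53.9 points, edgeR adjusted p = 0.00516) and not at week 1 (35.1 points, edgeR adjusted p = 0.0862).

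At chr13:69084001-69085000, week 1 libraries had 54.8%, 80.2%, 38.8% and 81.7%, day 1 libraries 75.9%, 79.2%, 64.03%, 81.6% and 66.8%, and NSC replicates 3 and 4 18.3% and 17.1%. Both operated groups lay above the controls, and week 1 was the more scattered. Position 69084062 was at 72.2% at week 1, 95.7% at day 1 and 58.8% in NSC, and position 69084283 at 59.6% at week 1, 69.2% at day 1 and 11.4% in NSC. The first rested on 17 NSC reads and the second on 289. The tile differed by 46.1 points at week 1 (edgeR adjusted p = 0.0303) and 55.8 points at day 1 (edgeR adjusted p = 0.00574).

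Across the members, 247 tiles (16.3%) held at least 1 cytosine at 50% or more in NSC replicates 1 and 2, and 151 of these also held one below 5%. In the 1271 tiles with no such cytosine, 45 were called higher and 7 lower at week 1, and 92 higher and 7 lower at day 1. Together these are 4.09% at week 1 and 7.79% at day 1, beside 1.00% and 2.38% of all tiles. In the 333 tiles whose every cytosine was below 5%, 3 were called higher and 0 lower at week 1, and 3 higher and 1 lower at day 1. Their shares called, 0.901% at week 1 and 1.20% at day 1, did not exceed those of all tiles. Tiles with 5 or more cytosines were called in 6.19% of cases at week 1 and 10.6% at day 1, and tiles with 3 cytosines in 2.73% at week 1 and 6.32% at day 1. Tested on their own, members with 5 or more were called in 5.97% of cases at week 1 and 11.1% at day 1. All tiles so tested had 1.29% and 2.99% called. For tiles with 3 cytosines the share over all such tiles was not computed. The spread between the cytosines of a tile had a median of 19.3 points at week 1, 18.2 points at day 1 and 18.2 points in NSC.

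Losses were fewer. Tile P, chr2:174093001-174094000, held 7 cytosines and had reads in all 13 libraries, though not every library read every cytosine. Its values were 0%, 0%, 0% and 0% in week 1 libraries, 0%, 0%, 0%, 3.31% and 5.04% in day 1 libraries and 29.03% and 23.8% in NSC replicates 3 and 4. Week 1 showed 0 methylated reads of 255, which allows up to 1.18%, and no operated library reached the controls. The 0% of day 1 replicate 2 rested on 5 reads. The changes were -26.4 points at week 1 (edgeR adjusted p = 0.00773) and -24.7 points at day 1 (edgeR adjusted p = 0.0169). At the deeper tile chr15:54707001-54708000, which was chosen after the values were seen, week 1 libraries had 7.57%, 8.56%, 6.07% and 4.40%, day 1 libraries 4.92%, 2.02%, 5.79%, 6.29% and 18.3%, and NSC replicates 3 and 4 29.1% and 31.98%. Day 1 replicate 5 was highest of the operated libraries and still below both controls. The changes were -23.9 points at week 1 (edgeR adjusted p = 0.0238) and -23.1 points at day 1 (edgeR adjusted p = 0.0126), and all 4 cytosines were lower in both groups.

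The largest loss at day 1 was tile M, chr1:45799001-45800000. Its values were 15.8%, 0%, 12.8% and 3.85% in week 1 libraries, 8.77%, 0% and 4.55% (no reads in replicates 2 and 5) in day 1 libraries and 54.3% and 53.3% in NSC replicates 3 and 4. Here the selecting pair was at 13%, far below NSC replicates 3 and 4 and close to the operated libraries, so the 4 NSC libraries did not share a level in this tile. The change was -45.7 points at week 1, where it was not called (edgeR adjusted p = 0.0915), and -49.4 points at day 1 (edgeR adjusted p = 0.0361). In tile N, chr20:8224001-8225000, all week 1 libraries lay above all day 1 libraries, with an unadjusted edgeR p of 0.00222 and no call after adjustment. Week 1 libraries had 29.3%, 20%, 77.8% and 19.05%, day 1 libraries 0%, 0%, 18.8%, 4.35% and 8.77%, and NSC replicates 3 and 4 38.1% and 51.4%. Week 1 replicate 3 lay above both controls, and the other week 1 libraries lay below them. The selecting pair had 21.3% and 25%, below both controls, above every day 1 library and within the week 1 range. The 20% of week 1 replicate 2 rested on 5 reads. Tile N was called at day 1 (edgeR adjusted p = 0.049), not at week 1 (edgeR adjusted p = 0.878). 

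Tile Q, chr11:77242001-77243000, had 0%, 0%, 0% and 0% at week 1, 8.97%, 0%, 23.7%, 0% and 4.08% at day 1, and 36.4% and 27.6% in NSC replicates 3 and 4. It was called lower at week 1 (-31.97 points, edgeR adjusted p = 0.0269) and not at day 1 (edgeR adjusted p = 0.154), where replicate 3 came close to the lower control. Its selecting pair had 5.97% and 19.7%, above every week 1 library and below day 1 replicate 3. Tile R, chr9:23509001-23510000, had 8.33%, 4.17%, 2.78% and 0.952% at week 1, 5.67%, 11.7%, 6.67% and 13.8% (no reads in replicate 2) at day 1, and 30% and 40.1% in NSC replicates 3 and 4. No operated library reached either control, and the tile was called at week 1 (-31.01 points, edgeR adjusted p = 0.0303) and not at day 1 (-25.6 points, edgeR adjusted p = 0.102). Tile O, chr17:53415001-53416000, was called lower at day 1 and not at week 1, and tile S, chr10:29379001-29380000, at week 1 and not at day 1. In tile O the selecting pair had 10.9% and 36.5%, the first below week 1 replicate 3 at 12.5%. In tile S it had 9.68% and 23.2%, the first below day 1 replicate 3 at 22.2%. In tile P it had 13.1% and 19.4%, and in tile R 43.3% and 22.9%, above every operated library. With NSC pairs exchanged, 3 tiles were called lower at week 1 and 4 at day 1.

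A core of the tiles was low in every library. Of 1518, 216 (14.2%) were below 5% in all libraries with reads, 324 (21.3%) were below 10%, and 53 had no methylated read anywhere. Among the 25 tiles with at least 50 reads in every library, 5 were picked for the smallest range. Of these, chr13:92126001-92127000 carried a steady low level as a summed value over 21498 reads. Its values were 8.15%, 9.80%, 7.32% and 7.91% in week 1 libraries, 7.90%, 9.72%, 8.49%, 10.7% and 9.38% in day 1 libraries and 6.45% and 10.9% in NSC replicates 3 and 4. All groups overlapped. The tile chr3:77175001-77176000 had methylation in 1 library only, 0.595% in week 1 replicate 3, over 2902 reads. At the tile chr15:79830001-79831000, no library exceeded 2.02% over 11869 reads. At the other end, the share of tiles with reads at 50% or more was 17.8% to 25.3% in week 1 libraries, 22.6% to 27.3% in day 1 libraries, and 4.16% and 4.73% in NSC replicates 3 and 4. In every operated library with reads, 6.79% of the tiles were at 50% or more.

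Gains were not gathered in one part of the genome. The median difference from NSC was above 0 on 20 of 20 chromosomes at week 1 and at day 1, on values that were not centred. Of the 114 tiles called higher at day 1, 56 had another tested tile within 5 tiles. Those nearest neighbours had a median of 63.7% in NSC replicates 3 and 4, and median differences of 7.03 points at week 1 and 10.9 points at day 1. For all 751 members with such a neighbour, the neighbours were at a median of 44.4% in NSC and differed by 1.12 points at week 1 and 2.34 points at day 1. Among the 56, 7 neighbours were themselves called higher at day 1, and among the 751, which include the 56, it was 18. Of all tiles tested, 1.64% were called higher at day 1. Of the 56 neighbours, 6 were themselves members and may be among the 114. The rest of the 114 had no tested tile that near, the neighbour looked at was the nearest one, and the difference between the shares was not tested.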

How the data were processed

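Genomic DNA was cut with MspI, fragments above 300 bp were removed, and the DNA was bisulfite-converted and made into libraries, per the labels' protocols. The submitters' processing notes name the assembly mRatBN7.2 and, without roles, Bismark 0.23.0, methylKit 1.14.2, FastQC and Trim Galore. The deposited files give, for each cytosine and strand with at least 5 reads, counts of methylated reads and of all reads, and methylation in percent. The deposited percent was truncated, so percent was recomputed from the deposited counts.

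Methylated and unmethylated counts were summed over the cytosines of a tile listed in at least 3 files of each group, which left 501791 cytosines on chromosomes 1 to 20. Library values are summed methylated over summed reads, and group values are means over libraries with reads. A library value covers only the cytosines that the library lists, and these can differ between libraries. Counts were tested in edgeR 4.0.16 (R 4.3.3) with quasi-likelihood F tests, 1 dispersion for all tiles, library effects, and group effects for methylated reads. The fit held 11 libraries, without NSC replicates 1 and 2. The script was checked on simulated counts. Tiles were called as the report states. Depth per library is in the report.

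Members, level bands and lists were chosen with earlier results of these data known. Named tiles were the 8 largest gains and 4 largest losses per comparison with NSC under the report's conditions, up to 5 called tiles in each direction between week 1 and day 1 (there were none), the 5 steadiest tiles with 50 reads in every library, the 3 tiles nearest each side of the threshold, and the 3 whose controls differed most. The deepest called tiles were added after the values were seen.

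Alternatives were 10 reads per cytosine, cytosines in all 13 files, 5 cytosines per tile, limma 3.58.1 on percent with and without centring each library on its median, quasi-binomial regression, minimum differences of 25 and 0 points, only the groups compared, thinning to 5 reads, a coverage limit at the 99.9th percentile, leaving out each library, exchanged NSC pairs, pooled percent over all listed cytosines, and a 20% threshold. Counts without members that hold a cytosine at 50% or more, and in members with at least 20 reads, were added after seeing the data. Replicates are numbered in accession order. Chromosomes X and Y, unplaced sequence and the fifth week 1 sample were not used here. Tables used Python 3.11.15, numpy 2.4.6 and pandas 2.3.3, figures matplotlib 3.10.9. A planned count of tiles near marker genes was not run, because gene annotation of the assembly was not used here.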

Additional observations from a re-analysis of the deposited data

Results flagged for a closer look

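In 86 groups of 4 or 5 libraries checked, 10 had a library far from the rest of its group, where chance alone gives about 1 in 20. In 5 of the 10 all other libraries of the group were at 0%, where any value above 0 stands apart whatever its size, and that rate does not apply to them. No explanation was tested for any of them. Day 1 replicate 2, the shallowest library, had the lowest day 1 median over all members, 10%. Week 1 replicate 4 had a median of 0.162% over the tiles under 5% in NSC replicates 1 and 2, where the other week 1 libraries were at 0%.

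Among single tiles, week 1 replicate 3 was at 29.6% in chr5:161790001-161791000, below the other week 1 libraries, and at 0.595% in chr3:77175001-77176000, where the others were at 0%. Week 1 replicate 2 was at 63.8% in chr2:82223001-82224000, below the rest. Week 1 replicate 4 was at 1.43% in chr17:23901001-23902000, where the others were at 0%. Day 1 replicate 3 was at 22.2% in chr10:29379001-29380000, where the other day 1 libraries with reads were at 0%. Day 1 replicate 4 was at 0.913% in chr16:24761001-24762000, where the others were at 0%, and at 52.0% in chr5:164637001-164638000, above the rest. Day 1 replicate 5 was at 18.3% in chr15:54707001-54708000, above the rest.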

How the results depend on the processing

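No paired analysis was possible because replicate numbers follow accession order only. Leaving out 1 library at a time gave 0 to 127 tiles called higher and 0 to 11 called lower at day 1, and 0 to 64 higher and 0 to 6 lower at week 1. The 0 came without NSC replicate 3 or without NSC replicate 4, where the lone control is assumed to vary like the other groups. Counts called higher and lower at week 1, then at day 1, were as follows. With 10 reads per cytosine (254 members) they were 16 and 3, then 26 and 2. With cytosines in all 13 files (100 members) they were 5 and 3, then 11 and 3. With 5 cytosines per tile (452 members) they were 25 and 2, then 48 and 2. These 3 settings test fewer members. With thinning to 5 reads they were 26 and 1, then 56 and 1. Quasi-binomial regression gave 0 and 0, then 64 and 5. A 20% threshold (1005 members) gave 33 and 5, then 61 and 5. limma after centring gave 55 and 27, then 69 and 56. Shares called, at week 1 and then at day 1, also moved over all tiles. In the main setting they were 4.22% and 8.04% of members, beside 1.00% and 2.38% of all tiles. With cytosines in all 13 files they were 8% and 14%, beside 4.04% and 8.97%. With 10 reads they were 7.48% and 11%, beside 3.10% and 5.94%. In these 2 settings the share of all tiles rose more in proportion than that of members. With thinning the shares were 1.78% and 3.75%, beside 0.634% and 1.29%. Tiles called lower numbered 18 at week 1 and 27 at day 1 with limma, 4 and 3 with a minimum of 25 points, and 3 and 4 with the NSC pairs exchanged, and 5 at day 1 without the highest coverage. The cause of these shifts was not tested, other than the smaller sets.

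The median difference from NSC at week 1 and at day 1 was 1.43 and 2.05 points with 10 reads, 1.25 and 1.04 with cytosines in all files, 1.94 and 2.26 with 5 cytosines, and 1.45 and 1.78 at the 20% threshold. Centring gave −2.85 and −4.82 points, and 2.51 for week 1 minus day 1. Centring subtracts more from libraries with higher methylation over all tiles, so tiles at 0% in every library fall by construction. The remaining alternatives kept the counts within 1.5 times and the medians within the spread between replicates. No tile was called between week 1 and day 1 in the members under any alternative run. For single named tiles, direction was compared only where the main or the alternative setting gave a call. These 46 tile and comparison pairs gave 716 alternative values. Of them, 549 kept the call or its absence, 0 reversed, 2 gained the call and 165 lost it. Pairs not called in the main setting, such as the steadiest tiles, had no call to lose, and they raise the 549. Without NSC replicate 3, and likewise without NSC replicate 4, all 35 pairs called in the main setting lost the call.

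The main limit is 2 control libraries. Median depth of 15 to 71 reads per tile with reads and library, over a median of 4 cytosines, leaves single values coarse.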

Other observations

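In some tiles the controls were as far apart as the groups. Among 778 members with at least 50 reads in NSC replicates 3 and 4, the widest gap was at chr1:246232001-246233000. Week 1 libraries had 69.4%, 40.7% and 40.6% (no reads in replicate 2), day 1 libraries 67.5%, 70%, 55.4% and 71.4% (no reads in replicate 2), and NSC replicates 3 and 4 61.3% and 10.6%, against 15.3% and 23.8% in NSC replicates 1 and 2. At chr12:1664001-1665000, week 1 libraries had 55.8%, 93.3%, 21.7% and 50.9%, day 1 libraries 30.6%, 42.9%, 68.7% and 20% (no reads in replicate 2), and NSC replicates 3 and 4 73.7% and 31.1%. At chr1:168486001-168487000, week 1 libraries had 22.9%, 100%, 11.5% and 48.9%, day 1 libraries 36.6%, 58.3%, 12.96% and 36.8% (no reads in replicate 2), and NSC replicates 3 and 4 4.59% and 46.0%. Its 100% rested on 11 reads. The week 1 mean there lay 20.6 points above NSC, while by pooled reads 0 cytosines were higher and 5 were lower. Libraries may list different cytosines of a tile, and how far this shaped the gaps was not tested. The groups overlapped in all 3 tiles, and edgeR called none of them against NSC.

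Among tiles with at least 20 reads in every library concerned, the range over libraries had a median of 14.9 points over the 4 week 1 libraries (580 tiles), 14.7 points over 4 day 1 libraries without replicate 2 (945 tiles), and 4.76 points over the 2 controls (1350 tiles). A range over 2 libraries is smaller than one over 4 by construction. Ranges of 50 points or more were found at 5.17% of these members at week 1 and 3.49% at day 1. They were found at 2.82% and 1.85% of tiles at 30 to 70%, and at 0.749% and 0.351% at 70% and above. The median range was larger at 30 to 70%, 18.6 and 17.9 points, and smaller at 70% and above, 11.6 and 9.67 points. These differences were not tested.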
